A study of Mus musculus and Rattus norvegicus with 6 samples.

Results

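The genes described here are those that encode potassium, calcium and mechanosensitive ion channels, together with the auxiliary proteins that carry the same gene prefixes, in cultured mouse smooth muscle cells (SMCs). They were chosen by gene symbol alone: symbols starting with Kcn, Cacna, Cacnb, Cacng, Trpc, Trpm, Trpv, Ano, Piezo or Ryr, and Itpr1 to Itpr3, without those whose endings mark some antisense transcripts. This took 162 of the 55573 genes counted, and left out 4 symbols for their ending. Among the 162, 3 do not name a channel subunit: Trpc4ap, a protein named for its association with TRPC4, and the transcripts Kcnmb4os1 and Kcnmb4os2. They are counted among the channel genes throughout. Of the 162 genes, 29 had no count in any library, 61 had counts but too few to be tested, and 72 were tested.

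Bulk RNA-seq was compared between siYAP/TAZ SMCs, which received siRNA against the transcriptional coactivators YAP and TAZ, and siCo SMCs, which received a control siRNA, with 2 libraries in each group. The study asked which effectors act downstream of YAP/TAZ in SMCs. All 4 libraries carry the labels wild type and MOVAS, a line of mouse aortic SMCs, whereas the legends of the study speak of primary SMCs from the penis. The sources used here give neither the time after transfection nor whether replicate libraries were separate cultures, and p-values therefore measure a spread between libraries that may be technical only. Both siYAP/TAZ columns of the table carry the name of the first siYAP/TAZ sample with a running number, although 2 such samples are labelled, so whether they are separate samples or repeat libraries of 1 sample is not given.

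Smooth muscle tone is set by cytosolic calcium. Voltage-gated calcium channels open when the membrane depolarises, potassium channels pull the potential back and close them, calcium-activated chloride channels and TRP cation channels push it the other way, and IP3 receptors release calcium from the sarcoplasmic reticulum. Piezo channels and some TRP and tandem-pore potassium channels are gated by membrane stretch or respond to it.

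Each library held 17192309 to 18751368 counts. Levels are given as FPKM, counts scaled to exon length and to library size. The targeted genes were measured first. Yap1 had 1.87 and 2.03 FPKM in the siYAP/TAZ libraries, against 21.9 and 23.5 FPKM in the siCo libraries. Wwtr1, which encodes TAZ, had 16.8 and 17.7 FPKM in the siYAP/TAZ libraries, against 56.5 and 59.1 FPKM in the siCo libraries. The groups did not overlap for either gene, and Wwtr1 kept more of its level than Yap1. The summed level of 10 smooth muscle markers was 111 and 107 FPKM in the siYAP/TAZ libraries, against 214 and 218 FPKM in the siCo libraries, with 6 of them lower, 1 higher and 3 not passing the test. The most abundant was Acta2, smooth muscle actin (68.8 and 66.1 FPKM in siYAP/TAZ cells, 138 and 142 FPKM in siCo cells), whereas Myh11, the smooth muscle myosin heavy chain, had 1.07 and 0.834 FPKM in siYAP/TAZ cells and 1.29 and 1.29 FPKM in siCo cells. Markers of other cell types were present: the 6 fibroblast markers, all of them higher in siYAP/TAZ cells, summed to 401 and 377 FPKM against 308 and 251 FPKM in siCo cells. The 6 endothelial markers summed to 83.4 and 86.4 FPKM in siYAP/TAZ cells and 83.8 and 83.7 FPKM in siCo cells, with 3 higher and 2 lower. The macrophage markers, nearly all of it Cd68, summed to 11.1 and 14.1 FPKM in siYAP/TAZ cells and 8.22 and 8.58 FPKM in siCo cells, while Adgre1 and Tyrobp had no count. Skeletal and cardiac muscle markers, most of it Mylpf, summed to 1.90 and 2.46 FPKM in siYAP/TAZ cells and 1.94 and 1.93 FPKM in siCo cells. Of these, Myod1 and Myog had no count. Neuronal markers summed to 2.26 and 2.72 FPKM in siYAP/TAZ cells against 1.22 and 1.65 FPKM in siCo cells. Of the 4 neuronal markers tested, 2 were higher, 1 did not pass and Elavl4 was lower (log2 fold change -1.51). Schwann cell markers summed to 1.82 and 1.46 FPKM in siYAP/TAZ cells against 0.830 and 0.836 FPKM in siCo cells. Epithelial markers, nearly all of it Krt8 and Krt18, summed to 16.9 and 15.4 FPKM in siYAP/TAZ cells against 5.95 and 7.39 FPKM in siCo cells. The part of these markers in the channel results was not tested, and in bulk samples fewer cells of a type and less RNA per cell cannot be told apart.

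Among the 72 tested channel genes, 31 had a higher level and 6 a lower level in siYAP/TAZ than in siCo cells (edgeR's quasi-likelihood test, Benjamini-Hochberg adjustment over 15479 genes, threshold 0.05). The share called in either direction was 51.4%, beside 55.4% of all genes tested. The split between directions was uneven: 43.1% of the channel genes were higher, beside 27.6% of all genes, and 8.33% were lower, beside 27.7%. A change of at least 2-fold was called upward for 11 channel genes (15.3%, beside 7.14% of all genes) and downward for 1 (1.39%, beside 3.15%). Of these 11, Kcnv2, Kcne1l, Kcnq1, Ano4 and Cacna1h passed the filter on low counts through the siYAP/TAZ libraries alone. In all, 10 of the 72 tested channel genes and 627 of the 15479 genes tested passed so. The 1 lower gene, Kcnk13, passed through the siCo libraries alone, as did 4 of the 72 channel genes in all and 471 of the 15479 genes. This way of passing favours genes with more reads in that group. Of those passing through siYAP/TAZ, 5 of the 10 channel genes and 304 of all 627 were called, each of them higher. Through siCo, 1 of the 4 channel genes and 133 of all 471 were called, each of them lower. Counts that include these genes, with or without the 2-fold threshold, are a description only. Among the 58 channel genes that passed otherwise, 26 were higher and 5 lower, and 6 (10.3%) were higher by at least 2-fold. Of all 14381 genes that passed otherwise, 3975 were higher and 4157 lower, and 801 (5.57%) were higher by at least 2-fold. The median log2 fold change was 0.32 over the tested channel genes and -0.0003 over all genes tested. FPKM values of the groups did not overlap for 50 of the 72 channel genes (69.4%), beside 77.2% of all genes.

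At each level, more channel genes were higher than lower. Of channel genes that averaged 5 FPKM or more over the 4 libraries, 7 of 10 were higher, Trpc4ap among them, and 1 was lower. Of all genes at that level, 30.9% were higher and 36.7% lower. Of those between 1 and 5 FPKM, 13 of 24 were higher and 2 lower, beside 26.0% and 24.1%. Below 1 FPKM, 11 of 38 were higher and 3 lower, beside 21.6% and 9.90%. The channel genes that passed the filter through 1 group alone all lie at this lowest level, so its counts are a description only.

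**Figure D1:**
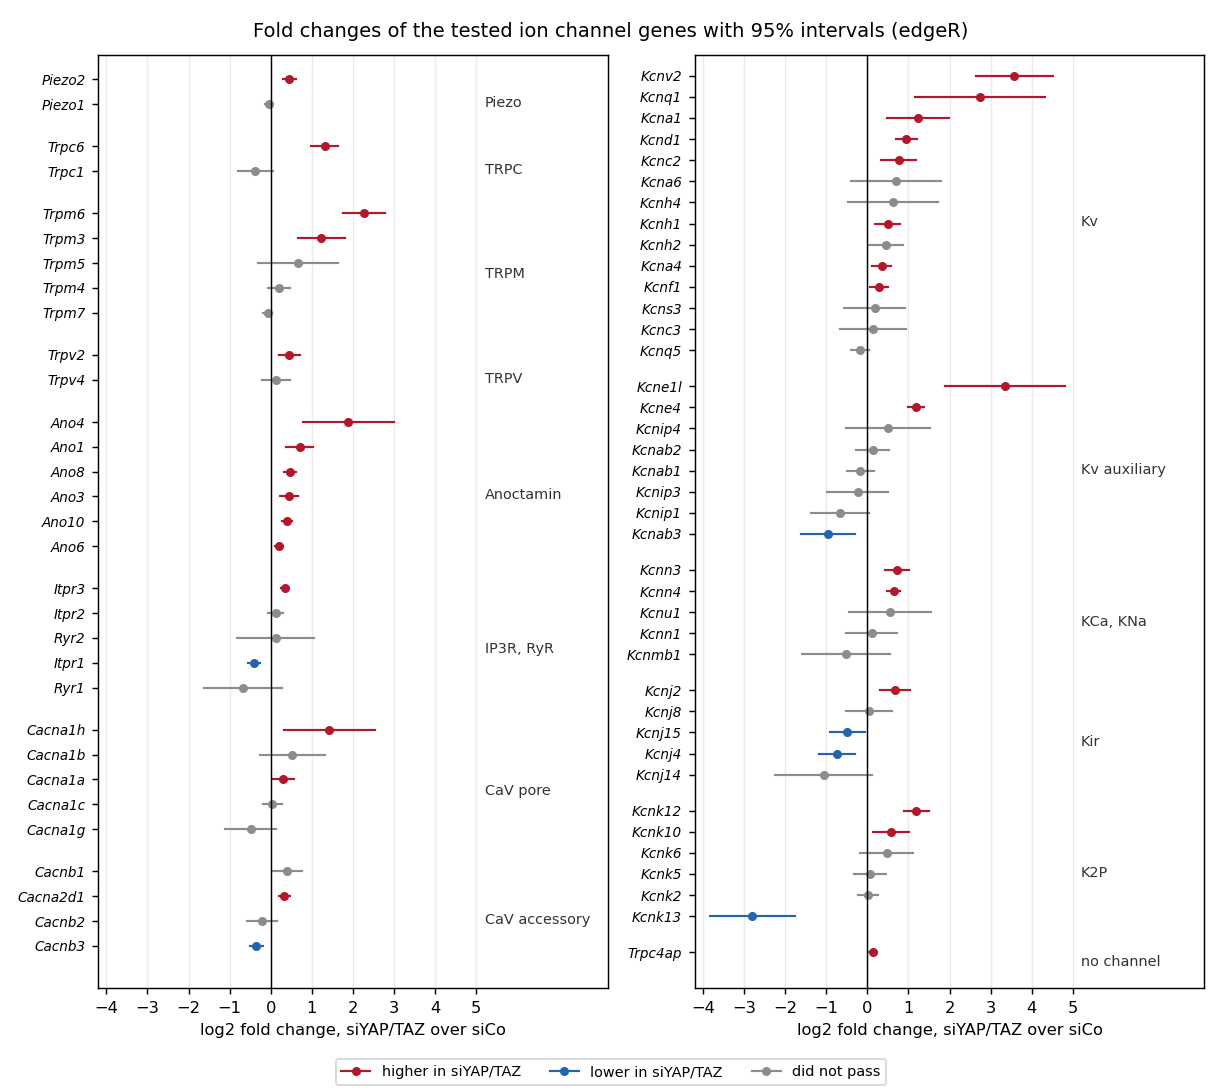
Log2 fold change of siYAP/TAZ over siCo cells (x axis) for 70 of the 72 tested channel genes, grouped by the kind of channel at the right of each panel, with points for estimates and lines for 95% intervals from edgeR. Red marks the 31 genes that were higher in siYAP/TAZ cells, blue the 6 that were lower and grey those that did not pass the test; all 6 anoctamins lie right of 0.

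Summed over all 162 genes, transcripts reached 230 and 230 FPKM in the siYAP/TAZ libraries, against 204 and 203 FPKM in the siCo libraries. Trpc4ap, which is no channel subunit, gave 16.9 and 18.1 FPKM of this in siYAP/TAZ cells and 16.3 and 16.8 FPKM in siCo cells. In 37 of them a group mean reached 1 FPKM, and in 11 it reached 5 FPKM. Piezo1 was the most abundant of them and made up 17.9% and 17.0% of the sum in siYAP/TAZ cells, against 20.5% and 21.4% in siCo cells. Anoctamins together had 42.0 and 41.2 FPKM in siYAP/TAZ cells, against 33.0 and 34.8 FPKM in siCo cells, whereas the pore subunits of voltage-gated calcium channels had 2.66 and 2.64 FPKM, against 2.62 and 2.22 FPKM.

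**Figure D2:**
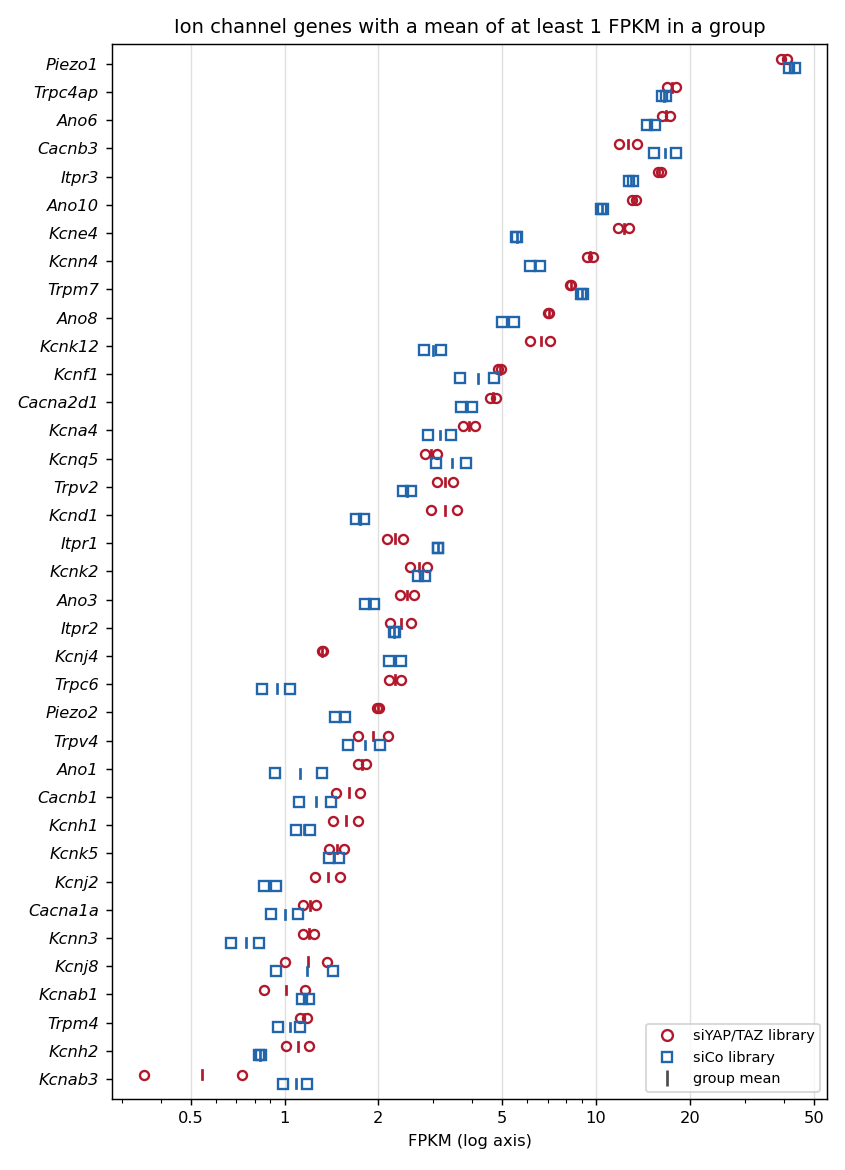
FPKM (log axis) of the 37 channel genes whose mean reached 1 FPKM in a group, ordered by their higher group mean. Circles are the siYAP/TAZ libraries, squares the siCo libraries and ticks the group means; Piezo1 lies at 39.2 to 43.5 FPKM in all 4 libraries, and Kcne4 is separated by more than 2-fold between groups.

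Among the stretch-gated channels, Piezo1 (ENSMUSG00000014444, mm10 chromosome 8, 122481698 to 122551329, minus strand), the main Piezo channel of vascular cells, had 41.1 and 39.2 FPKM in siYAP/TAZ cells, against 41.8 and 43.5 FPKM in siCo cells. The groups lay close together and Piezo1 did not pass the test (log2 fold change -0.04, 95% interval -0.13 to 0.05). Piezo1 overlaps Ctu2 on the opposite strand, which was lower in siYAP/TAZ cells (415 and 322 counts against 531 and 546), and no source used here gives the strand setting of the counting, so reads of overlapping genes cannot be told apart. The same limit holds for Trpm4 with Rpl14-ps1, Ano8 with Dda1, Cacna1c with Dcp1b and Kcnmb1 with Kcnip1. Piezo2, best known from touch-sensing neurons and Merkel cells, was higher (1.99 and 2.01 FPKM in siYAP/TAZ cells against 1.45 and 1.56 FPKM in siCo cells, log2 fold change 0.45 ± 0.080 (SE), adjusted p = 5.5e-05). Piezo1 nevertheless made up at least 95.1% of Piezo transcripts in every library.

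The canonical TRP channels are opened downstream of phospholipase C. Trpc6 (ENSMUSG00000031997, mm10 chromosome 9, 8544142 to 8680741, plus strand), gated by diacylglycerol and linked to myogenic depolarisation of arteries, had 2.17 and 2.37 FPKM in siYAP/TAZ cells, against 1.04 and 0.843 FPKM in siCo cells. Both siYAP/TAZ libraries were more than 2-fold above both siCo libraries, and the log2 fold change was 1.31 ± 0.16 (SE, adjusted p = 3.9e-07). Trpc6 lies on the same chromosome as the targeted Yap1, 539545 bases away and with 8 genes between them. Whether this position bears on its level was not tested. Trpc1 had 0.445 and 0.442 FPKM in siYAP/TAZ cells, against 0.622 and 0.566 FPKM in siCo cells, and did not pass the test. Trpc4 had too few counts to be tested. Trpc4ap had 16.9 and 18.1 FPKM in siYAP/TAZ cells and 16.3 and 16.8 FPKM in siCo cells and was called higher (log2 fold change 0.13), a call that was lost with DESeq2, with library totals as scaling, with limma, without siCo replicate 1 (0.10) and without siYAP/TAZ replicate 2 (0.084).

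Of the melastatin TRP genes, Trpm6, which encodes a magnesium-permeable channel fused to a kinase, had 0.732 and 0.972 FPKM in siYAP/TAZ cells, against 0.176 and 0.187 FPKM in siCo cells (log2 fold change 2.27 ± 0.24 (SE), adjusted p = 7.4e-08). Its close relative Trpm7, which was far more abundant, had 8.26 and 8.32 FPKM in siYAP/TAZ cells, against 8.96 and 9.10 FPKM in siCo cells. Trpm7 lay below siCo in both siYAP/TAZ libraries but did not pass the test (log2 fold change -0.08, 95% interval -0.18 to 0.02), and was called lower only with library totals as scaling (-0.12). Trpm3, a cation channel opened by heat and by pregnenolone sulfate, was higher (75 and 58 counts in siYAP/TAZ cells, 24 and 35 counts in siCo cells, log2 fold change 1.23 ± 0.28 (SE), adjusted p = 0.00072); it shares its strand with an overlapping transcript, and limma on FPKM did not call it. Trpm4, a calcium-activated sodium-permeable channel of arterial muscle, had 1.18 and 1.12 FPKM in siYAP/TAZ cells and 1.12 and 0.953 FPKM in siCo cells and did not pass. Trpv2, a stretch-responsive cation channel, was higher (3.09 and 3.46 FPKM in siYAP/TAZ cells, 2.54 and 2.40 FPKM in siCo cells, log2 fold change 0.45 ± 0.12 (SE), adjusted p = 0.0032). Trpv4, which responds to swelling and shear, had 1.71 and 2.14 FPKM in siYAP/TAZ cells and 2.03 and 1.59 FPKM in siCo cells, so that the groups overlapped.

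All 6 anoctamins tested were higher in siYAP/TAZ cells, beside 43.1% of the tested channel genes and 27.6% of all genes tested. Their log2 fold changes were 0.20 to 1.88. The 1.88 belongs to Ano4, which passed the filter on low counts through the siYAP/TAZ libraries alone, so its call is a description only. Anoctamins are calcium-activated chloride channels or lipid scramblases. Ano1, the calcium-activated chloride channel of smooth muscle, had 1.72 and 1.83 FPKM in siYAP/TAZ cells, against 0.931 and 1.32 FPKM in siCo cells (log2 fold change 0.70 ± 0.16 (SE), adjusted p = 0.00074). It held at most 4.43% of anoctamin transcripts in any library. The most abundant was Ano6, a phospholipid scramblase, with 17.3 and 16.3 FPKM in siYAP/TAZ cells and 14.6 and 15.5 FPKM in siCo cells (log2 fold change 0.20 ± 0.047 (SE), adjusted p = 0.0010), followed by Ano10 with 13.1 and 13.5 FPKM against 10.4 and 10.6 FPKM (0.39 ± 0.056) and Ano8 with 7.04 and 7.03 FPKM against 5.01 and 5.45 FPKM (0.47 ± 0.071). In each of these the lower siYAP/TAZ library lay above the higher siCo library. Ano4 had the largest fold change and the fewest reads (20 and 16 counts in siYAP/TAZ cells, 4 and 6 counts in siCo cells, log2 fold change 1.88 ± 0.53). The Ano4 call was lost with DESeq2, with limma on log2(FPKM + 1), without siCo replicate 1 (1.61) and without siYAP/TAZ replicate 1 (1.78), and that of Ano6 was lost with limma. Ano3, named after its values were seen, had a log2 fold change of 0.45.

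Voltage-gated potassium channels included 16 tested pore-forming or silent subunits, of which 8 were higher and 8 did not pass the test. Of all genes tested, 27.6% were higher and 27.7% lower. Kcnv2 and Kcnq1, among the 8 higher, passed the filter on low counts through the siYAP/TAZ libraries alone, so their calls are a description only. The largest fold change belonged to Kcnv2 (ENSMUSG00000047298, mm10 chromosome 19, 27322588 to 27337179, plus strand), a silent subunit that forms no channel on its own and alters other Kv channels. It had 53 and 41 counts in siYAP/TAZ cells, against 4 and 4 counts in siCo cells, a log2 fold change of 3.57 ± 0.45 (SE, adjusted p = 7.4e-07). Kcnq1, the pore of the slow cardiac Kv7.1 channel, had 13 and 14 counts in siYAP/TAZ cells, against 4 and 0 counts in siCo cells (log2 fold change 2.74 ± 0.76, adjusted p = 0.0041). The ratio of summed Kcnq1 counts per total was 6.84 (95% interval 2.39 to 26.9, counting error only). Kcnq1 fell short of the threshold without siCo replicate 2 (1.81) or siYAP/TAZ replicate 2 (2.64), and without siCo replicate 1 the fitted value was 6.79, against a library at 0. The antisense transcript Kcnq1ot1, which overlaps it, had 54 and 45 counts in siYAP/TAZ cells and 65 and 91 counts in siCo cells. Kcna1, a Kv1 subunit, was higher with 39 and 31 counts in siYAP/TAZ cells against 17 and 14 counts in siCo cells (log2 fold change 1.23 ± 0.36, adjusted p = 0.0068), but not with DESeq2 or without siYAP/TAZ replicate 1 (1.13).

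Kcnf1 and Kcnq5 were among the most abundant Kv genes, with small differences between groups. Kcnf1, a silent subunit and the Kv gene with the highest level, had 4.94 and 4.86 FPKM in siYAP/TAZ cells and 4.70 and 3.65 FPKM in siCo cells. It was called higher (log2 fold change 0.28), but leaving out siCo replicate 2 gave 0.11 and leaving out siCo replicate 1 gave 0.47, and the call was also lost without either siYAP/TAZ library (0.27 and 0.30), with DESeq2, with library totals and with limma. Kcnq5, a Kv7 channel that holds smooth muscle near its resting potential, had 3.08 and 2.81 FPKM in siYAP/TAZ cells and 3.07 and 3.81 FPKM in siCo cells; it did not pass the test with all libraries and was lower without siCo replicate 1 (log2 fold change -0.33). Kcna5 and Kcna2, Kv1 pores of vascular muscle, had no count. Of the other called genes, named after their values were seen, Kcnd1 had a log2 fold change of 0.95, Kcnc2 of 0.76, Kcnh1 of 0.49 and Kcna4 of 0.35.

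Auxiliary proteins of Kv channels were led by Kcne4 (ENSMUSG00000047330, mm10 chromosome 1, 78816758 to 78820028, plus strand), a small membrane protein that inhibits or alters several Kv channels. Kcne4 had 12.8 and 11.8 FPKM in siYAP/TAZ cells, against 5.58 and 5.53 FPKM in siCo cells. With 538 to 636 counts in siYAP/TAZ libraries and 265 to 273 in siCo libraries, its log2 fold change of 1.19 ± 0.091 (SE) had the smallest adjusted p of the channel genes (3.7e-10). Kcne1l, a member of the same family also called Kcne5, had 18 and 23 counts in siYAP/TAZ cells, against 4 and 0 counts in siCo cells (log2 fold change 3.35 ± 0.70, adjusted p = 0.00035). Kcne1l passed the filter on low counts through the siYAP/TAZ libraries alone, so its call is a description only. Its summed counts per total were 10.4-fold higher (95% interval 3.76 to 40.0, counting error only), and without siCo replicate 1, where the remaining siCo library is at 0, the fitted log2 value was 7.39. In the other direction Kcnab3, a cytoplasmic Kv beta subunit named after its values were seen, was lower with 19 and 36 counts in siYAP/TAZ cells against 52 and 61 counts in siCo cells (log2 fold change -0.97).

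**Figure D3:**
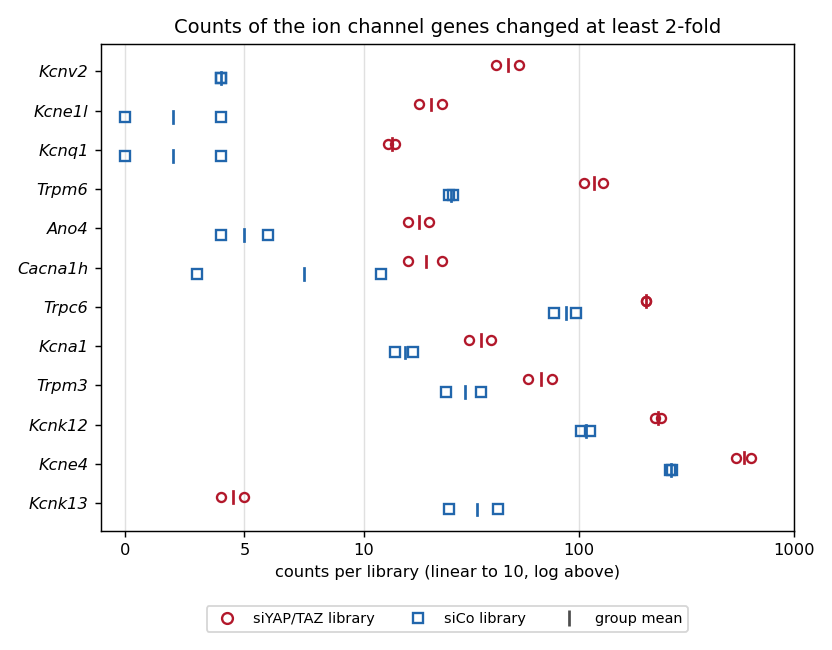
Counts per library (x axis, linear to 10 and logarithmic above) of the 12 channel genes that passed the test with at least a 2-fold change, ordered by fold change. Circles are siYAP/TAZ libraries, squares siCo libraries and ticks group means; only Kcne4, Kcnk12 and Trpc6 exceed 200 counts in both siYAP/TAZ libraries, and Kcnk13 at the bottom is the single gene with the siYAP/TAZ libraries to the left.

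Tandem-pore (K2P) potassium channels carry the resting leak. Here the close relatives Kcnk12 and Kcnk13 differed in direction. Kcnk13 passed the filter on low counts through the siCo libraries alone, so its call and this contrast are a description only. Kcnk12 (THIK-2; ENSMUSG00000050138, mm10 chromosome 17, 87745801 to 87797994, minus strand) had 6.14 and 7.14 FPKM in siYAP/TAZ cells, against 2.81 and 3.18 FPKM in siCo cells (log2 fold change 1.19 ± 0.15 (SE), adjusted p = 5.6e-07). Kcnk13 (THIK-1; ENSMUSG00000045404, mm10 chromosome 12, 99964499 to 100062682, plus strand) had 4 and 5 counts in siYAP/TAZ cells, against 42 and 25 counts in siCo cells (log2 fold change -2.80 ± 0.50, adjusted p = 6.4e-05), and was the one channel gene lower by at least 2-fold. THIK-2 is known as a mostly silent or intracellular relative with which THIK-1 can assemble. The level of Kcnk12 exceeded that of Kcnk13 in all libraries, on the FPKM scale. The stretch-gated K2P channel Kcnk2 (TREK-1) had 2.87 and 2.53 FPKM in siYAP/TAZ cells and 2.68 and 2.83 FPKM in siCo cells, with overlapping groups and a 95% interval of -0.23 to 0.26 for its log2 fold change. It shares its strand with the pseudogene Pdcd5-ps. Kcnk6 had 45 and 32 counts in siYAP/TAZ cells and 29 and 29 counts in siCo cells and did not pass, and Kcnk10 (TREK-2), named after its values were seen, had a log2 fold change of 0.59. Kcnk3 had too few counts to be tested.

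Promoters are shown for Kcne4, Kcnk12 and Trpc6, which had the most counts among the members changed at least 2-fold, and for the lower Kcnk13. YAP and TAZ reach DNA through TEAD factors, whose core motif is GGAATG. Each window runs from 250 bases before to 50 after the gene start in RefSeq (GRCm38.p6, the mm10 build), read 5′ to 3′ on the gene's strand, with capitals marking the motif (CATTCC where it lies on the other strand).
Kcnk12, chr17:87797945-87798244, minus strand: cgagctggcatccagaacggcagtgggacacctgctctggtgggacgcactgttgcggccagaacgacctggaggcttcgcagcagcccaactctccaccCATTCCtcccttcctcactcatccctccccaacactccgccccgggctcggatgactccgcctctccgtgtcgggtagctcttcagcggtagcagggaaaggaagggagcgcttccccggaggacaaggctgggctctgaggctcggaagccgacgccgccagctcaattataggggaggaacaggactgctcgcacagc
Kcnk13, chr12:99964249-99964548, plus strand: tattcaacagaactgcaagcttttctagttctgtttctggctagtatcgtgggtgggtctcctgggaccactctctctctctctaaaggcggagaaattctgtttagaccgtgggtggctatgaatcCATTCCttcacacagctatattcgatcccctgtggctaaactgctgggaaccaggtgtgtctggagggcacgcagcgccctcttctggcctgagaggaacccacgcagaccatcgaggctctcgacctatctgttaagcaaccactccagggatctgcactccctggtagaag
Kcne4, chr1:78816661-78816960, plus strand: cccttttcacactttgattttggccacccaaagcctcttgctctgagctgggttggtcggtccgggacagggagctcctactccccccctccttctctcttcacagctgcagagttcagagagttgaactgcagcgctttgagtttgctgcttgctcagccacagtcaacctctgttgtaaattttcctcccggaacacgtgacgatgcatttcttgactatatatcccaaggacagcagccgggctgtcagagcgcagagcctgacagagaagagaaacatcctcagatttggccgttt
Trpc6, chr9:8543892-8544191, plus strand: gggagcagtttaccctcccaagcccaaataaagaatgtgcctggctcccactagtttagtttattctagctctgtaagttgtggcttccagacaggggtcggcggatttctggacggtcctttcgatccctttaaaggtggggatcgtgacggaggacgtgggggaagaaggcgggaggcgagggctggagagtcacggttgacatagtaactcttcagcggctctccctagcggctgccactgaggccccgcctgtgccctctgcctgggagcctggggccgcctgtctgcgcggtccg
The windows of Kcnk12 and Kcnk13 each hold 1 GGAATG, on the strand opposite to the gene, 150 and 123 bases before the start, and those of Kcne4 and Trpc6 hold none. A RefSeq window was found for 123 of the 162 genes. GGAATG, searched on both strands, lay in 14.7% of all 32851 windows of the table and in 22 of the 123 (17.9%), among them 5 of the 23 higher genes, 1 of the 4 lower genes that have a window, 2 of the 27 tested genes that were not called and 14 of the 69 genes that were not tested. The AP-1 motif TGANTCA lay in 7.81% of all windows and in 5 of the 123 (4.07%). These were 0 of the 27 called channel genes with a window, 2 of the 27 tested genes that were not called and 3 of the 69 that were not tested. With so few windows, the 0 carries no conclusion. A match describes these letters only.

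Of the calcium-activated potassium channels of intermediate and small conductance, Kcnn4 and Kcnn3 were higher, Kcnn1 did not pass the test and Kcnn2 was not tested. Kcnn4 (KCa3.1), which is known to be raised in proliferating vascular SMCs, had 9.80 and 9.37 FPKM in siYAP/TAZ cells, against 6.12 and 6.60 FPKM in siCo cells (log2 fold change 0.64 ± 0.072 (SE), adjusted p = 1.4e-07). Kcnn3 (SK3) had 1.24 and 1.15 FPKM in siYAP/TAZ cells, against 0.670 and 0.828 FPKM in siCo cells (0.72 ± 0.14, adjusted p = 0.00018). The groups did not overlap for either gene. The large-conductance BK channel, a defining channel of contractile smooth muscle, was almost absent: its pore Kcnma1 had 0 and 1 counts in siYAP/TAZ libraries and 6 and 13 counts in siCo libraries and was not tested, and its smooth muscle beta subunit Kcnmb1 had 7 and 15 counts in siYAP/TAZ libraries and 11 and 22 counts in siCo libraries and did not pass. Kcnma1 was singled out after its values were seen. Its summed counts per total in siYAP/TAZ cells were 0.0534 of those in siCo cells (95% interval 0.00128 to 0.336, counting error only). Other untested channel genes leaned the other way. Trpc4, also singled out after its values were seen, had 14 summed counts in siYAP/TAZ cells and 1 in siCo cells (ratio per total 14.2, 95% interval 2.16 to 600, counting error only).

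Inward rectifiers went both ways. Kcnj2 (Kir2.1), which sets the resting potential of small arteries, had 1.51 and 1.25 FPKM in siYAP/TAZ cells, against 0.938 and 0.856 FPKM in siCo cells (log2 fold change 0.67 ± 0.17 (SE), adjusted p = 0.0025). Kcnj4 (Kir2.3), of the same subfamily, was lower with 1.31 and 1.32 FPKM in siYAP/TAZ cells, against 2.37 and 2.17 FPKM in siCo cells (-0.74 ± 0.21, adjusted p = 0.0057). The Kcnj2 call was lost without siYAP/TAZ replicate 1 (0.53) and the Kcnj4 call with DESeq2. Kcnj15, named after its values were seen, was also lower (-0.49). Kcnj8 (Kir6.1), the pore of the vascular ATP-sensitive channel, had 1.01 and 1.37 FPKM in siYAP/TAZ cells and 1.43 and 0.936 FPKM in siCo cells, with overlapping groups, and its partner Abcc9, the SUR2 subunit, did not pass either.

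Of the voltage-gated calcium channels, Cacna1c (CaV1.2), the L-type pore through which calcium enters contracting smooth muscle, had 1.05 and 0.823 FPKM in siYAP/TAZ cells and 0.992 and 0.895 FPKM in siCo cells. The groups overlapped and the 95% interval of its log2 fold change was -0.19 to 0.27. The T-type pore Cacna1h (CaV3.2) had 23 and 16 counts in siYAP/TAZ cells and 12 and 3 counts in siCo cells and was called higher (log2 fold change 1.43 ± 0.53, adjusted p = 0.027), and by 2.69 when siCo replicate 1 was left out. That call was lost without siCo replicate 2 (0.77), without siYAP/TAZ replicate 1 (1.21) or 2 (1.61), with DESeq2 and with limma. Cacna1h passed the filter on low counts through the siYAP/TAZ libraries alone, so its call is a description only. The other T-type pore, Cacna1g, had 29 and 36 counts in siYAP/TAZ cells and 57 and 39 counts in siCo cells and did not pass. Cacna1a (CaV2.1), the neuronal P/Q-type pore and the most abundant of the class, was called higher (1.14 and 1.26 FPKM in siYAP/TAZ cells, 1.10 and 0.901 FPKM in siCo cells, log2 fold change 0.31), but not without siCo replicate 2 (0.17), without siYAP/TAZ replicate 2 (0.24), with DESeq2, with library totals or with limma.

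The accessory subunits were more abundant than the pores. Cacnb3, a cytoplasmic beta subunit that brings pores to the membrane, made up at least 83.8% of beta subunit transcripts in every library. It was lower, with 11.8 and 13.5 FPKM in siYAP/TAZ cells against 18.1 and 15.4 FPKM in siCo cells (log2 fold change -0.36 ± 0.076 (SE), adjusted p = 0.00041), and the value was -0.24 without siCo replicate 1. Cacna2d1, the alpha-2-delta subunit that raises surface expression of the pores, was higher with 4.79 and 4.56 FPKM in siYAP/TAZ cells against 3.69 and 3.99 FPKM in siCo cells (0.33 ± 0.065, adjusted p = 0.00019). Cacnb2, with 124 and 86 counts in siYAP/TAZ cells and 137 and 117 counts in siCo cells, did not pass.

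The IP3 receptors differed among themselves. Itpr3, which made up most of them, was higher with 15.8 and 16.1 FPKM in siYAP/TAZ cells against 13.1 and 12.7 FPKM in siCo cells (log2 fold change 0.35 ± 0.047 (SE), adjusted p = 1.9e-06). Itpr1, the form usually named as the main one of contractile smooth muscle, was lower with 2.39 and 2.13 FPKM in siYAP/TAZ cells against 3.10 and 3.12 FPKM in siCo cells (-0.41 ± 0.068, adjusted p = 2.5e-05). Itpr2 had 2.18 and 2.55 FPKM in siYAP/TAZ cells and 2.24 and 2.26 FPKM in siCo cells; it did not pass with all libraries and was called higher without siYAP/TAZ replicate 1 (0.23). Itpr1 thus took 11.8% and 10.3% of IP3 receptor FPKM in siYAP/TAZ cells, against 16.8% and 17.2% in siCo cells, and Itpr3 took 77.5% and 77.5%, against 71.1% and 70.3%. The ryanodine receptor Ryr2, which gives calcium sparks in arterial muscle, had 15 and 14 counts in siYAP/TAZ cells and 16 and 12 counts in siCo cells and did not pass.

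Partners and regulators of these channels were taken as a separate list of 34 genes, of which 22 were tested. Of these 7 were higher, 6 lower and 9 did not pass, with a median log2 fold change of 0.02, beside 27.6% higher and 27.7% lower of all genes tested. Gem, a small GTPase that inhibits voltage-gated calcium channels, had 29.9 and 29.6 FPKM in siYAP/TAZ cells, against 15.1 and 13.2 FPKM in siCo cells (log2 fold change 1.12 ± 0.072 (SE), adjusted p = 2.3e-11). The STAC adaptors, which bind L-type channels, were also higher by at least 2-fold for Stac (0.968 and 1.19 FPKM in siYAP/TAZ cells against 0.390 and 0.231 FPKM in siCo cells, 1.83 ± 0.34) and Stac3 (1.51 and 1.65 FPKM against 0.790 and 0.654 FPKM, 1.17 ± 0.25). Of the junctophilins, which tether the sarcoplasmic reticulum to the plasma membrane, Jph2 and Jph1 were lower, Jph4 did not pass and Jph3 was not tested. Jph2 had 0.589 and 0.533 FPKM in siYAP/TAZ cells against 1.90 and 1.89 FPKM in siCo cells (-1.71 ± 0.20, adjusted p = 1.8e-07). Jph1 had 0.672 and 0.407 FPKM in siYAP/TAZ cells against 1.67 and 1.60 FPKM in siCo cells (-1.54 ± 0.21, adjusted p = 2.0e-06). Ahnak, a giant scaffold that binds calcium channel beta subunits, was the lower partner with the smallest adjusted p (18.7 and 18.8 FPKM in siYAP/TAZ cells, 32.7 and 34.6 FPKM in siCo cells, -0.80 ± 0.043).

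**Figure D4:**
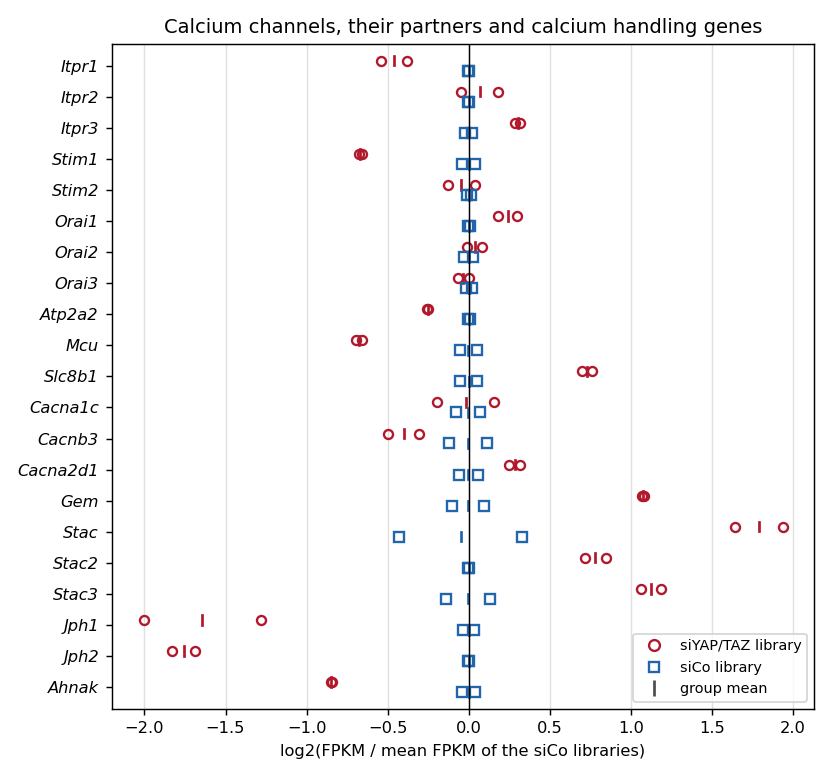
Log2 ratio of the FPKM of each library to the mean FPKM of the siCo libraries (x axis) for calcium channel genes, their partners and calcium handling genes. Circles are siYAP/TAZ libraries, squares siCo libraries and ticks group means of the log2 ratios; Gem and the Stac genes lie to the right of 0 in siYAP/TAZ cells and Jph1, Jph2 and Ahnak to the left, while Cacna1c straddles 0.

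Genes that store, pump and refill calcium formed a list of 38, of which 29 were tested: 9 were higher, 10 were lower and 10 did not pass, with a median log2 fold change of 0.0007, beside 27.6% higher and 27.7% lower of all genes tested. The store sensor Stim1 was lower with 3.68 and 3.62 FPKM in siYAP/TAZ cells against 5.96 and 5.64 FPKM in siCo cells (-0.62 ± 0.065, adjusted p = 5.1e-08), and it was the lower gene of the list with the smallest adjusted p. Orai1, the pore that STIM1 opens, was higher (15.6 and 17.0 FPKM in siYAP/TAZ cells, 13.7 and 13.8 FPKM in siCo cells, 0.28 ± 0.076). At the top, Slc8b1, the sodium-calcium exchanger of mitochondria, had 14.1 and 14.7 FPKM in siYAP/TAZ cells against 8.97 and 8.34 FPKM in siCo cells (0.77 ± 0.072, adjusted p = 8.3e-09), while Mcu, the mitochondrial calcium uniporter, was lower (4.42 and 4.54 FPKM against 6.89 and 7.42 FPKM, -0.63 ± 0.072). Atp2a3, a calcium pump of the endoplasmic reticulum, changed by more than 2-fold at a low level (0.323 and 0.286 FPKM in siYAP/TAZ cells, 0.0514 and 0.147 FPKM in siCo cells, 1.66 ± 0.45), whereas Atp2a2, the main pump here, was lower by little (58.9 and 58.6 FPKM against 70.3 and 69.7 FPKM, -0.21 ± 0.041).

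A further list of 30 mechanosensitive channels without these gene prefixes had 20 tested members, of which 9 were higher, 2 were lower and 9 did not pass, with a median log2 fold change of 0.15, beside 27.6% higher and 27.7% lower of all genes tested. Pkd2 (polycystin-2), a TRP-related channel of cilia and the reticulum, had 29.4 and 27.6 FPKM in siYAP/TAZ cells, against 20.3 and 18.6 FPKM in siCo cells (log2 fold change 0.60 ± 0.048 (SE), adjusted p = 9.2e-10). The osmosensitive channel Tmem63a had 31.1 and 31.0 FPKM in siYAP/TAZ cells against 23.6 and 22.3 FPKM in siCo cells (0.48 ± 0.048), and Tmc8, of the transmembrane channel-like family, was 2-fold higher (1.76 and 1.96 FPKM against 0.924 and 0.980 FPKM, 1.01 ± 0.20). Trpa1, an irritant-gated TRP channel, was higher as well (0.49 ± 0.17), whereas Tmem120a was slightly lower (-0.17 ± 0.055).

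The 40 channels taken as those usually named for smooth muscle gave 31 tested genes, with 12 higher, 2 lower and 17 not passing and a median log2 fold change of 0.13, beside 27.6% higher and 27.7% lower of all genes tested. The 9 that were not tested include Kcnma1, Kcna5, Kcna2 and Kcnj11. Of all channel genes left untested, none had a group mean above 0.277 FPKM or more than 17 counts in a library, and no call was made for them.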

How the data were processed

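Per the methods and the labels, the authors trimmed paired-end reads with Trimmomatic, aligned them to mm10 with HISAT2 and used featureCounts on uniquely mapped reads, which lowers counts of genes with near-identical copies. Versions and strand setting are not given in the sources used. The authors deposited raw counts and FPKM values rounded to 2 decimals. Count over exonic length and library total gave the deposited FPKM of all 55573 genes in the siCo libraries (within 0.0051), and FPKM of all 4 libraries were computed so. In the table, 57 of 55630 rows name no single gene and hold 0 counts. The siYAP/TAZ columns show the group but not the sample, so their replicate numbers follow the running numbers of the column names, which are not sample numbers, and 2 further per-sample columns were not used. Rat tissue libraries were not analysed here.

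The main test was the quasi-likelihood test of edgeR 4.0.16 (R 4.3.3) after TMM scaling and filterByExpr (minimum count 10), with Benjamini-Hochberg adjustment over 15479 genes and a threshold of 0.05. Its spread rested on 18.6 prior and 2 residual degrees of freedom. The standard error is the absolute log2 fold change over the square root of F. No library was a duplicate (chi-square per gene between replicates 2.00 for siYAP/TAZ and 3.34 for siCo). Intervals on count ratios are 95% exact and cover counting error only.

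Members and lists were chosen with earlier results of these data known. Named are members changed at least 2-fold, tested channels usually named for smooth muscle, the most abundant member of each kind, members reaching 5 FPKM and, in the other lists, genes changed at least 2-fold or with the smallest adjusted p in each direction. Stac, Jph1 and the like follow this rule, whereas Atp2a2, Orai1, Mcu, Tmem63a, Trpa1 and Abcc9 were added after their values were seen. A few genes that this rule covers are not reported here. Alternatives were DESeq2 1.42.0, library totals as scaling, no filter, a filter of 1 CPM in 2 libraries, limma 3.58.1 on log2(FPKM + 1) and log2(FPKM + 0.1), leaving out each library and, chosen after seeing the data, a replicate block. On data simulated for the 15479 genes with 200 changed, edgeR recovered 77% of log2 changes of 1 and 98% of log2 changes of 2, and 2.23% of its calls were unchanged genes. In the real data 55.4% of all genes tested were called, so these shares hold for the simulated setting only. Python 3.11.15 with pandas 2.3.3, scipy 1.17.1 and matplotlib 3.10.9 served for tables and figures.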

Additional observations from a re-analysis of the deposited data

How the results depend on the processing

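The number of channel genes called higher was 31, and 21 to 34 under the alternatives; 24 of the 44 named channel genes had the same call and direction in every alternative run. The number called lower was 6, and 3 with DESeq2. The number at least 2-fold higher was 11, and 7 with the filter of 1 CPM in 2 libraries (which tests fewer genes), 7 with limma on log2(FPKM + 0.1) and 1 with limma on log2(FPKM + 1), a scale that understates changes of low genes; all genes at least 2-fold higher and lower then numbered 348 and 176 instead of 1105 and 488. The number at least 2-fold lower was 1, and 2 with library totals, 2 without a filter, 0 with limma on log2(FPKM + 1) and 1 to 3 when a library was left out (2 without siCo replicate 1 and 3 without siYAP/TAZ replicate 2). Library totals moved the median of all genes by -0.04 on the log2 scale. Apart from the 2-fold counts of limma on log2(FPKM + 1) and the replicate block below, the counts of all genes under these runs are not given here. The counts of channel genes alone do not show whether they moved more than other genes. Single-library effects on named channel genes stand beside those genes. The lists of partners, calcium handling genes and other mechanosensitive channels were tested with all 4 libraries in edgeR alone.

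Among these 44, signs turned only for genes that did not pass the test. On the log2 scale, Cacna1c was -0.0050 with library totals, -0.015 and -0.0063 with limma on log2(FPKM + 0.1) and log2(FPKM + 1), -0.029 without siCo replicate 2 and -0.15 without siYAP/TAZ replicate 1 (up to 0.21 when another library was left out). Kcnk2 was -0.026 with library totals, -0.030 and -0.022 with the same limma fits, -0.022 without siCo replicate 1 and -0.074 without siYAP/TAZ replicate 1 (up to 0.11). Kcnj8 was -0.0017 with library totals, -0.23 without siCo replicate 2 and -0.18 without siYAP/TAZ replicate 2 (up to 0.38). Without siCo replicate 2, Trpv4 was -0.029, Kcnmb1 0.088 and Ryr2 -0.059, and without siYAP/TAZ replicate 2, Trpv4 was -0.027. Their other extremes on leaving out a library were 0.31 for Trpv4, -1.21 for Kcnmb1 and 0.32 for Ryr2. The causes were not tested.

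A replicate block from the running numbers of the columns was added after seeing the data. It gave 33 channel genes higher and 6 lower, with 11 and 1 at least 2-fold higher and lower, and 4440 and 4428 of all genes higher and lower. Libraries with the same number did not deviate together (correlation 0.00774 over 15479 genes), and the numbers are not shown to pair the samples.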
